A study of Mus musculus with 20 samples.

Results

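The contact map of wild-type E11.5 limb buds was described over the whole captured interval, chr19:44440001-46400000 of the mouse genome (mm9), which spans 1.96 Mb around the *Lbx1*/*Fgf8* locus. Every pair of 5 kb bins of the interval belonged to it. Of 392 bins, 389 carried values, and these gave 75855 bin pairs, of which 295 held no read pair. The map rested on 4 of the 20 samples of the series: Capture Hi-C libraries of 3 biological replicates and 1 technical replicate, made from forelimb and hindlimb buds of embryos with the genotype label wild type and the strain label c57bl6.J, with no engineered allele and no treatment. The authors merged these 4 libraries into 1 map. No spread between replicates could therefore be computed, no test was run on any value below, and each interval given is a 95% counting interval that covers counting error only. The buds were dissected whole and forelimb and hindlimb were combined, so each value is an average over all cell types of the bud. The map holds no expression values, so the tissue could not be checked against marker genes.

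Chromosomes fold into topologically associating domains (TADs), stretches within which DNA segments meet more often than they meet the DNA outside. Cohesin is known to extrude loops of DNA until it meets the DNA-binding protein CTCF, and CTCF sites at the base of a loop usually point towards each other. Such contacts appear in a map as points, and as stripes where one anchor meets a long run of DNA. The interval holds several developmental genes. *Lbx1* encodes a homeobox factor of migrating limb muscle precursors, and *Fgf8* encodes the growth factor made by the apical ectodermal ridge, the signalling ridge at the tip of the limb bud. In the centromeric flank (lower coordinates) lie *Wnt8b*, which encodes a Wnt ligand, *Pax2*, a paired-box factor of kidney, eye and ear, and *Tlx1*, a homeobox factor needed for the spleen. In the telomeric flank (higher coordinates) lie *Ldb1*, a cofactor of LIM-domain proteins known to join distant DNA elements, *Pitx3*, a homeobox factor of lens and midbrain, and *Nfkb2*, a subunit of NF-kappa-B.

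The most prominent contacts of the map had anchors at or near the following short sequences, each a match to the core letters of the CTCF motif, CCA, any 2 bases, AG, any 2 bases and GGC. The 12 matched bases are in capitals with 4 bases on each side, all read 5′ to 3′ on the matched strand, and the coordinates (mm9) are those of the capitals. They are shown because the direction of the motif can be read against the direction of each contact. A match is only a match of letters, and binding of CTCF was not measured in these data.
Telomeric anchor of the highest point contact of the centromeric flank, chr19:44962361-44962372, minus strand, intergenic: ctgtCCAGCAGGGGGCgccc
Minimum centromeric of *Lbx1*, beyond the 3′ end of the gene, chr19:45296095-45296106, plus strand, intergenic: cagaCCACCAGCCGGCccct
Same minimum, chr19:45297051-45297062, plus strand, intergenic: ctgcCCAGCAGGTGGCccag
Same minimum, chr19:45297528-45297539, minus strand, intergenic: taaaCCAAGAGCAGGCtaat
Partner within *Btrc*, chr19:45513614-45513625, minus strand, intron: cccaCCAGCAGGAGGCactg
Minimum between *Btrc* and *Poll*, chr19:45625125-45625136, plus strand, intergenic: cagcCCAAAAGGGGGCtggg
Minimum next to *Fgf8* and *Npm3*, chr19:45821024-45821035, plus strand, intergenic: acgcCCACCAGAGGGCgcta
Same minimum, chr19:45822167-45822178, minus strand, intergenic: gggaCCACCAGGTGGCactg
*Kazald1* minimum, chr19:45148836-45148847, plus strand, intergenic: aaacCCACCAGAGGGCgctc
Centromeric end of the interval, chr19:44447645-44447656, plus strand, intergenic: tgtaCCACAAGGGGGCgcct
Its nearest partner, chr19:44493691-44493702, minus strand, intergenic: atggCCACCAGGTGGCagca
*Pitx3* and *Elovl3* anchor, chr19:46211835-46211846, plus strand, *Pitx3* intron: acccCCAGAAGGGGGCgcgc
Its partner within *Gbf1*, chr19:46325064-46325075, minus strand, intron: gccaCCAGAAGCAGGCtaag

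The map was built from 7867931 read pairs, of which 79.9% joined different bins. Depth fell steeply with distance: the median bin pair held 1012.5 read pairs under 25 kb, 252 at 25 to 100 kb, 53 at 100 to 500 kb, 15 at 500 to 1000 kb and 7 beyond. Bins differed in read pairs by 15.2-fold, from 5127 to 77838 with a median of 35125, and across bins this number correlated with the number of GATC sites, where the enzyme cuts (Pearson's r = 0.64, a description over neighbouring bins). Knight-Ruiz (KR) balancing brought every bin to the same total signal of 36390.9. The bins that start at 45165001, 45260001 and 45775001 had no values. Among bins with values, those at 44585001 and 46240001 held only 5323 and 9008 read pairs. The lowest bin with values starts at 45255001, and the bin at 45265001 held 8953 read pairs. The bins from 45255001 to 45265001, which lie centromeric of *Lbx1*, were thus thinly covered. The value from read pairs without balancing is given beside the band, the point contacts and the contacts of the *Tlx1* stretch that include them.

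Contact fell with distance in a way that differed between the parts of the interval. The mean KR signal was 1299.8 at 10 kb (95% counting interval 1295.6 to 1304) and 309 at 50 kb. It was 95.2 at 200 kb (94.1 to 96.4), 35.9 at 500 kb and 13.3 at 1000 kb (12.7 to 13.9), which is 1.02% of the signal at 10 kb. On log-log axes the slope was −0.90 from 10 to 50 kb, −0.81 from 50 to 200 kb, −1.07 from 200 to 500 kb and −1.42 from 500 to 1500 kb, with residual standard errors of the line of 0.0055, 0.0071, 0.015 and 0.011. The decline was thus least steep between 50 and 200 kb and steepest beyond 500 kb. With medians in place of means this order changed, with −1.11 at 50 to 200 kb and −0.77 at 200 to 500 kb. Bin pairs at one distance were far from uniform: their coefficient of variation was 21.9% at 10 kb and 61.7% at 200 kb.

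The interval was divided at the minima nearest to *Lbx1* and *Fgf8* into a centromeric flank of 855 kb, the *Lbx1*/*Fgf8* locus of 530 kb (chr19:45295001-45825000) and a telomeric flank of 575 kb. Within 50 to 200 kb the slope was −0.91 in the centromeric flank, −0.68 in the locus and −0.64 in the telomeric flank. Within 200 to 500 kb the order changed, with −0.71, −0.57 and −1.3. At 200 kb the centromeric flank had a mean signal of 87.1 (85.4 to 88.9), below the 114.6 (112 to 117) of the locus and the 117 (114 to 121) of the telomeric flank. At 400 kb the locus was highest at 64.9 (61.4 to 68.4), the centromeric flank had 59.4 (57.6 to 61.2) and the telomeric flank 41.7 (39.1 to 44.3). The telomeric flank thus lost contact between 200 and 400 kb, where the other parts kept more of it. The means at 400 kb rest on 25 bin pairs in the locus, 89 in the centromeric flank and 35 in the telomeric flank. In the locus and the telomeric flank such pairs join only DNA towards opposite ends, so these means depend on where the parts were cut.

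**Figure D1:**
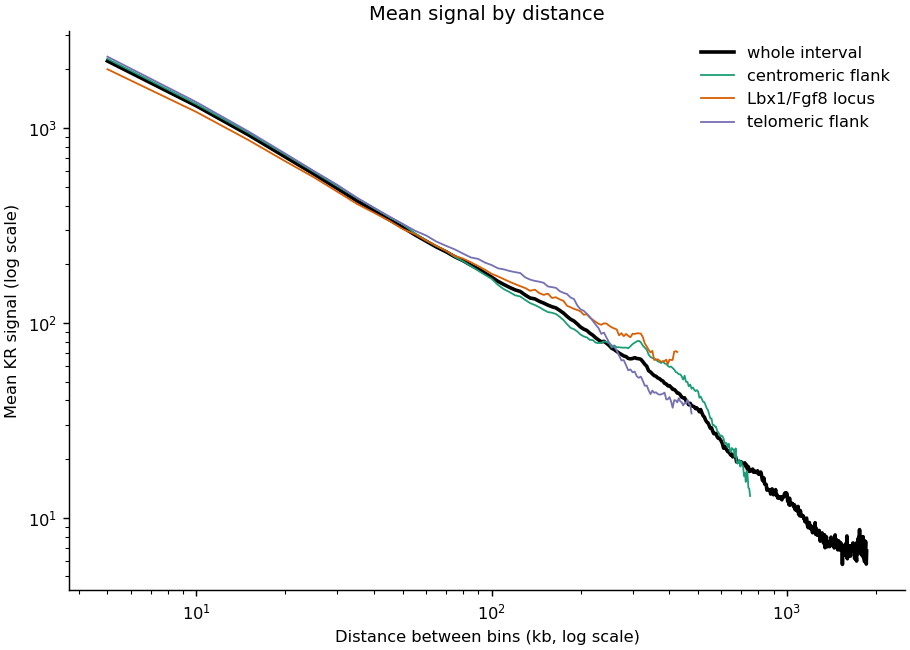
Mean KR signal (log scale) against the distance between bins in kb (log scale), for the whole interval in black and for its 3 parts in colour, each up to the distance its length allows. The telomeric flank lies highest at 100 to 200 kb and lowest at 400 kb, where its mean is 41.7 against 64.9 in the *Lbx1*/*Fgf8* locus.

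Along the interval, contact across a bin edge dropped at 11 places. The insulation score of an edge is the log2 of the mean signal between the 100 kb on its centromeric side and the 100 kb on its telomeric side, over the mean of all scored edges. A minimum had to lie at least 0.1 below the ground on both sides. Of 353 scored edges, 11 (3.12%) were minima, and 9 of the 11 had the start of a protein-coding gene within 10 kb, against 26.6% of all scored edges. The 100 kb at each end of the interval had no score.

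In the centromeric flank the most pronounced minimum lay at position 44635000, between *Ndufb8*, a subunit of mitochondrial complex I, and *Hif1an*, the oxygen-dependent hydroxylase of HIF. Its score was −0.70 (−0.71 to −0.69), so contact across it was 0.62 of the mean. Its prominence was 1.12, measured from the highest score on its telomeric side before a deeper minimum, 0.42 at 45725000. The nearest maximum on that side was 0.36 at 44765000. A shallow minimum at 44835000, inside *Pax2*, had a score of 0.10, above the mean of all edges, and became −0.25 when windows of 50 kb were used. The minimum at 45005000, next to *Slf2*, a gene of DNA repair, scored −0.57, but was not found without balancing or with bins of 10 kb. The score at 44970000, with no protein-coding start within 10 kb, was nearly as low at −0.56. With windows of 50 kb both were minima. That at 44970000 was then the deeper, with −0.53 and a prominence of 0.81, against −0.47 and 0.14 at 45005000. The minimum at 45150000, inside *Kazald1*, which encodes a secreted protein, scored −0.44. It was also found with windows of 50, 200 and 300 kb and deepened with them, to −0.72 at 200 kb and −0.87 at 300 kb. It was not found with bins of 10 kb, nor when the signal was first divided by the mean at its distance.

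At the locus, the minima at 45295000 and 45620000, which scored −0.61 (−0.63 to −0.60) and −0.57 (−0.59 to −0.56), were the only ones of the 11 with no protein-coding start within 10 kb. The minimum at 45620000 was also found with windows of 50, 200 and 300 kb. That at 45295000 was deeper with 50 kb, at −0.83, and was not a minimum with 200 or 300 kb, where its score was −0.56 and −0.51. The lowest scores of the interval formed a pair next to *Fgf8*. The minimum at 45825000 scored −0.91 (−0.93 to −0.90), and that at 45860000, at the start of *Oga*, which removes O-GlcNAc from proteins, scored −0.95 (−0.96 to −0.93). Contact across them was 0.53 and 0.52 of the mean. The score between them rose only to −0.72, so they bounded a single low stretch of 35 kb over the body of *Oga*. With bins of 10 kb or a prominence of 0.2 the minimum at 45860000 was found and that at 45825000 was not. With windows of 300 kb the reverse held: 45825000 was a minimum at −0.48 and 45860000 was not.

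Further telomeric, 3 minima followed closely: 46075000 at *Armh3* and *Hps6* with a score of −0.41, 46115000 at *Ldb1* and *Pprc1* with −0.51, and 46150000 at *Nolc1* with −0.53. Between them the score rose to −0.30 at most. Past *Nolc1*, a nucleolar phosphoprotein gene, it climbed to the highest value of the interval, 0.83 at 46280000 within *Gbf1*, a gene of Golgi transport. The next highest was 0.58 at 45960000 within *Armh3*, and in the locus the maxima were 0.38 at 45430000 and 0.42 at 45725000. In the stretches at *Slf2* to *Kazald1* and at *Tlx1* the score rose only to 0.03 and 0.08.

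**Figure D2:**
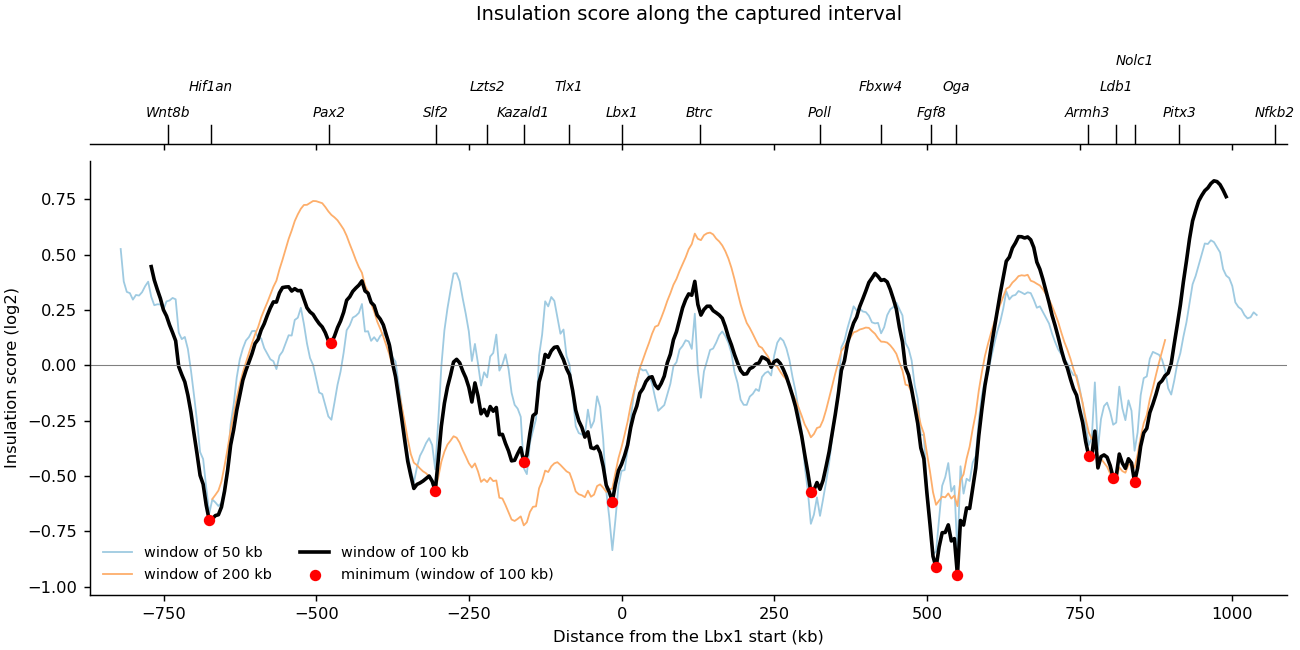
Insulation score (log2) against the distance from the *Lbx1* start in kb, with windows of 100 kb in black, 50 kb in blue and 200 kb in orange, and gene starts marked above. The red points are the 11 minima, the lowest of which, at −0.91 and −0.95, lie beside *Fgf8* and *Oga*, and the highest score, 0.83, lies in the telomeric flank.

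The minima divided the interval into 12 stretches of 35 to 325 kb, 10 of them closed at both ends with a median length of 157.5 kb. Each is named here by the first and last protein-coding gene that starts in it. Observed over expected contact (O/E) is the summed signal over that expected from the mean at each distance, for pairs at 15 kb or more. Inside the stretches it ranged from 0.94 to 1.38 with a median of 1.11, and 10 of 12 were above 1. The highest values belonged to the stretches at the ends, which the interval cuts off: *Nolc1* to *Nfkb2* (250 kb) had 1.38 (1.38 to 1.39) and *Scd1* to *Ndufb8* (195 kb) had 1.31 (1.3 to 1.32). Among the closed stretches *Oga* (35 kb) had 1.25, *Kcnip2* to *Armh3* (215 kb) 1.21, *Ldb1* to *Pprc1* (35 kb) 1.2 but 0.68 without balancing, *Poll* to *Npm3* (205 kb) 1.13, *Lbx1* to *Gm6807* (325 kb) 1.09 and *Slf2* to *Kazald1* (145 kb), with 8 gene starts, 1.08. The stretch of *Tlx1* (145 kb) had 1.00 (0.99 to 1.01), or 0.93 without balancing, and that of *Hps6* (40 kb) 0.94. Because the minima that bound the stretches were read from the same map, these values describe the stretches and do not test them.

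The stretches were cut where contact across an edge was low in this map, so low contact between neighbours largely follows from the cuts. Contact between neighbouring stretches lay below 1 in 9 of 11 cases and below that inside both neighbours in 9 of 11, counts that only describe the stretches. The lowest was 0.62, across the *Ndufb8* and *Hif1an* minimum. The exception with the largest value was *Pax2*: the stretch from *Hif1an* to *Pax2* and the 170 kb beyond it, which hold no protein-coding start, met at 1.58 (1.58 to 1.59), more than either did within itself (1.07 and 1.03). Joined, they made a stretch of 370 kb (chr19:44635001-45005000, a choice made after the values were seen) with an O/E of 1.21, against 1.48 without balancing. The other exception, *Kcnip2* to *Armh3* with *Hps6*, had 1.01.

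Contact between stretches further apart ranged from 0.46 to 2.31 over 55 pairs with a median of 0.97, and 26 of them were above 1. The lowest values lay between the *Lbx1* to *Gm6807* stretch and the DNA centromeric of it: 0.46 with the 170 kb without a gene start and 0.49 with *Slf2* to *Kazald1*. Without balancing these were 0.52 and 0.53. The highest values belonged to the *Tlx1* stretch, which met almost everything beyond the *Lbx1* stretch more than expected: 1.94 (1.91 to 1.96) with *Poll* to *Npm3*, 2.31 (2.25 to 2.37) with *Oga*, 1.82 with *Kcnip2* to *Armh3*, 1.97 with *Hps6*, 1.63 with *Ldb1* to *Pprc1* and 1.36 with *Nolc1* to *Nfkb2*. Of the stretches telomeric of it, only the next, that of *Lbx1*, met it less than expected, at 0.87 (0.83 without balancing). As the *Tlx1* stretch holds 2 of the 3 bins without values, the values without balancing are given in the same order: 1.90, 2.30, 1.59, 1.37, 1.24 and 1.21. The *Slf2* to *Kazald1* stretch had 1.80 with *Oga* and 1.66 with *Ldb1* to *Pprc1* (2.14 and 1.45 without balancing).

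**Figure D3:**
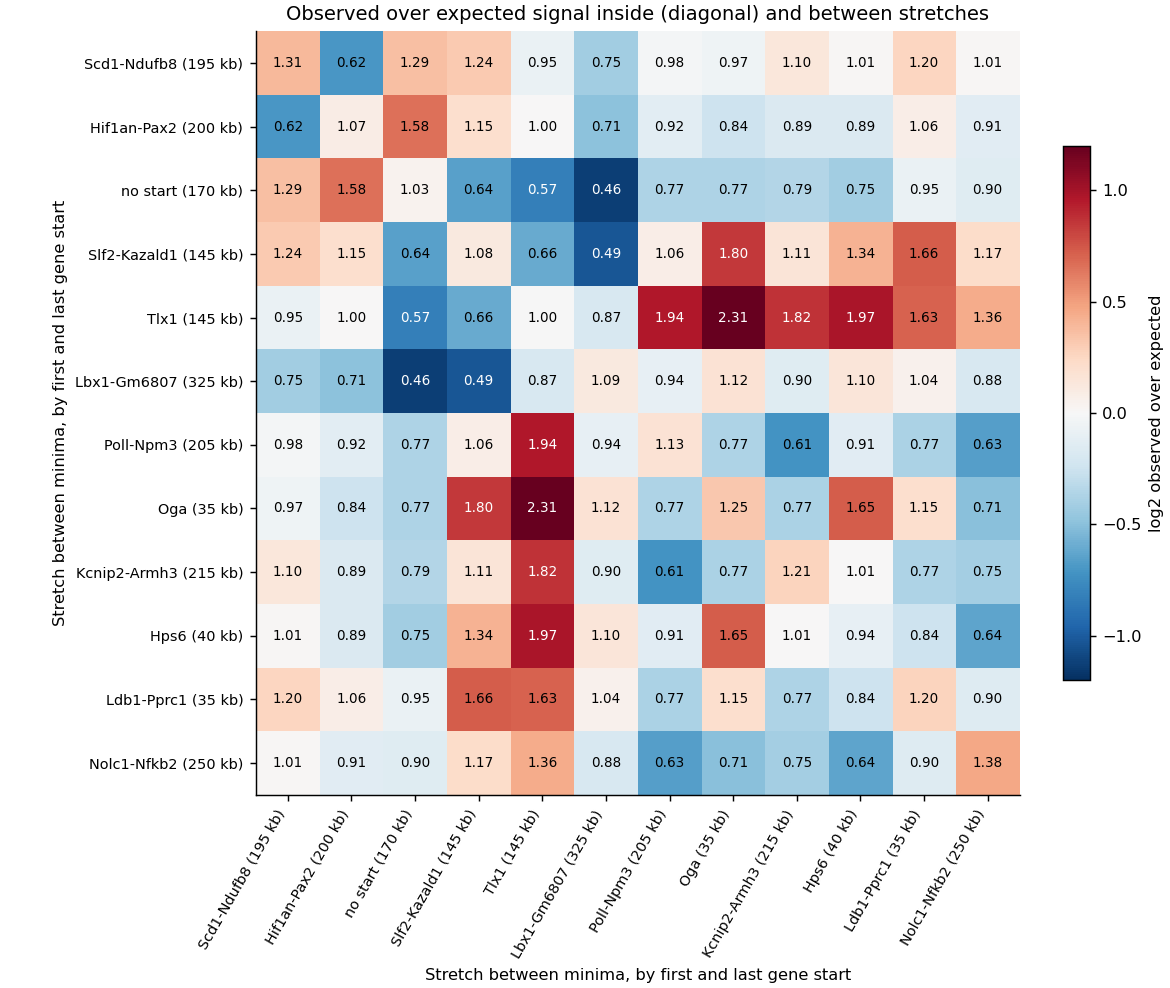
O/E inside each of the 12 stretches (diagonal) and between each pair of them, coloured on a log2 scale, with stretches in genome order and named by their first and last gene start. The row of *Tlx1* is above 1 with every stretch from *Poll* to *Npm3* onwards, up to 2.31 with *Oga*, and the darkest blue cells join *Lbx1* to *Gm6807* with the stretches centromeric of *Tlx1*, at 0.46 and 0.49.

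Contact between the whole parts was also set against the expectation. That expectation comes from this map, so O/E above 1 in some places is offset by O/E below 1 in others. O/E between the centromeric and telomeric flanks was 1.18 (1.17 to 1.18) from a mean of 10.7 read pairs per bin pair, while each flank met the locus less, at 0.81 (centromeric) and 0.78 (telomeric). Without balancing these values were 1.14, 0.83 and 0.74. They are not independent: the value between the flanks partly mirrors the low values with the locus. A separate excess of contact between the flanks was not tested. Inside the parts, O/E was 1.03 in the centromeric flank, 1.06 in the locus and 1.08 in the telomeric flank, which without balancing was 0.90.

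**Figure D4:**
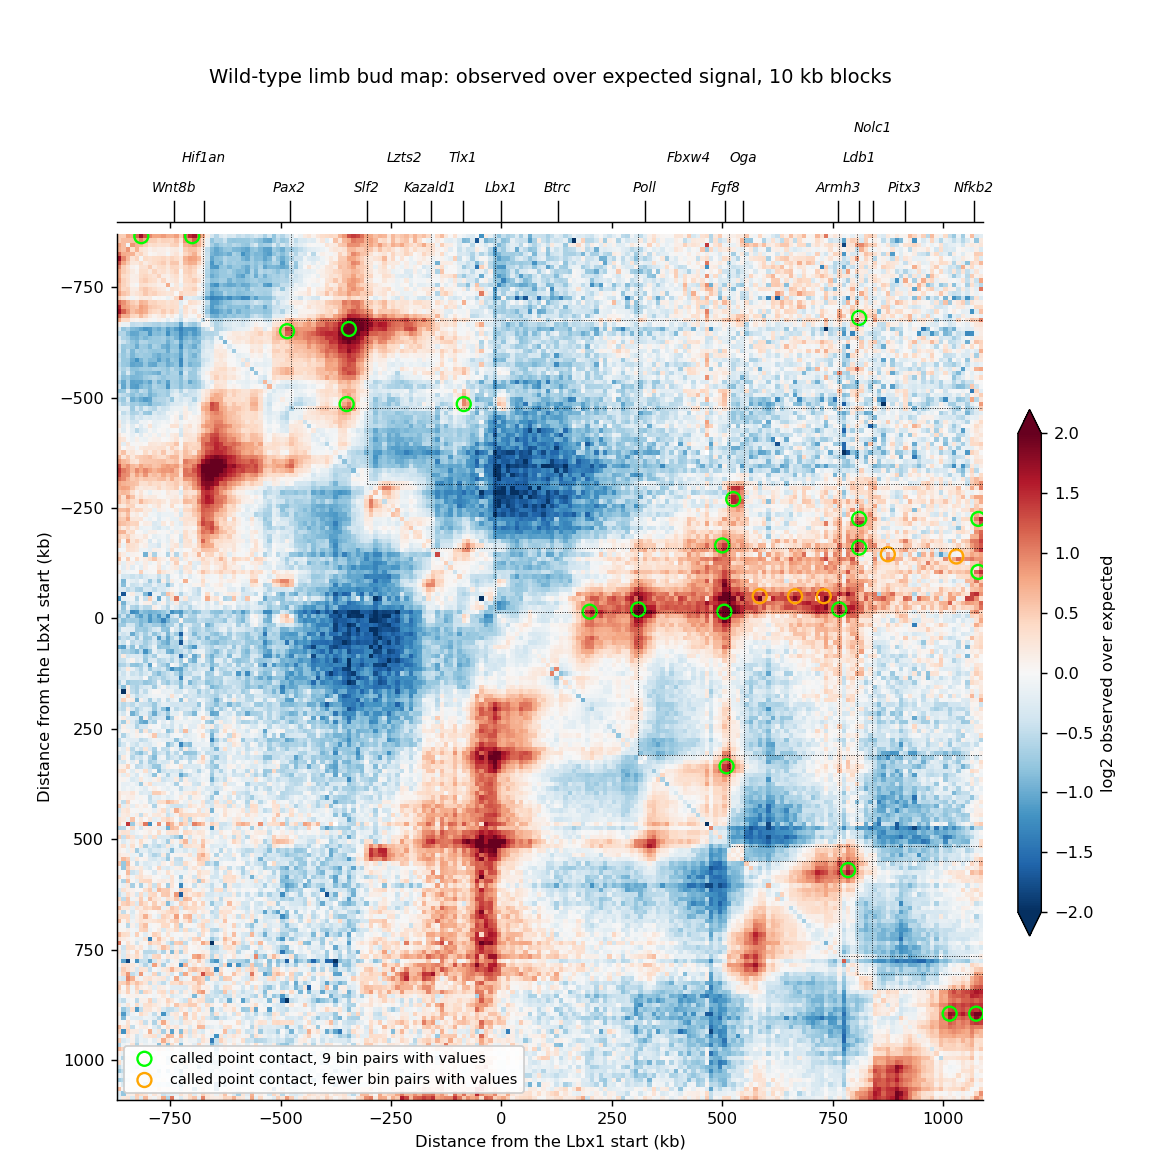
O/E of the whole interval as log2, in blocks of 10 kb, on axes of distance from the *Lbx1* start in kb (top and left are centromeric). Dotted lines are the 11 minima and circles the 26 called point contacts, green where all 9 bin pairs had values and orange where fewer had. The darkest red spot of the centromeric flank is the contact with an O/E of 8.12, and a red band runs telomeric from the minimum centromeric of *Lbx1*.

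The red band of the map was measured by the 50 kb on either side of the minimum at 45295000 (an interval chosen after the map was seen). For the centromeric 50 kb, 9 of its bins had values. Its O/E with DNA 100 to 200 kb telomeric was 0.96. It was 2.02 at 200 to 300 kb, 2.67 at 300 to 400 kb, 2.18 at 400 to 500 kb and 3.08 (3.01 to 3.16) at 500 to 600 kb. Past the *Oga* minimum it was still 2.19 at 600 to 700 kb, 2.62 at 700 to 800 kb, 1.86 at 800 to 900 kb and 1.32 at 900 to 1000 kb. The band thus crossed the minima at 45620000, 45825000 and 45860000 and reached the cluster of minima at *Ldb1*. For the telomeric 50 kb, which holds *Lbx1*, the values were 1.04, 1.97, 2.18, 1.70 and 2.20 up to 600 kb and 1.26, 1.62, 1.32 and 1.08 beyond it. Without balancing, the centromeric band had 0.70 at 100 to 200 kb, then 1.62, 2.32, 1.66 and 2.79 up to 600 kb. Beyond 600 kb it had 1.57, 1.85, 1.27 and 0.97, so its last segment was not above expectation on that scale. On the same scale the telomeric 50 kb had 1.12 at 100 to 200 kb, then 2.30, 2.62, 1.86 and 2.83 up to 600 kb. The telomeric values were then the higher ones, except at 600 to 700 kb (1.37 against 1.57) and 700 to 800 kb (1.68 against 1.85). Which side of the minimum was higher thus changed with balancing in most segments.

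Pairs of minima were also compared through squares of 30 kb around the crossing of their positions. Of 52 pairs at 50 kb or more, 34 were above 1, against 38.1% of all squares of that size, and 8 above 2, against 3.85%. Of the 8, 5 involved the minimum at 45295000, which met 45620000 at 4.06, 45825000 at 4.75 (4.64 to 4.87), 45860000 at 2.41, 46075000 at 2.36 and 46115000 at 2.27. The remaining 3 were the *Ndufb8* and *Hif1an* minimum with that of *Slf2* at 3.12, and the *Kazald1* minimum with 45825000 at 2.12 and with 46115000 at 2.10. The lowest pair was that of *Slf2* with 45295000 at 0.34. Pairs of one minimum share its bins and are not independent.

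Point contacts were called where a square of 3 x 3 bins at 50 kb or more had an O/E of at least 2 and held at least 50 read pairs. Its O/E had to be at least 1.5 times that of the ring around it. It also had to be at least 1.2 times that of its arms and of the quadrant towards the diagonal. Only the highest square within 25 kb was kept. Of 72363 squares, 26 (0.0359%) were called, with O/E from 2.01 to 8.12 and a median of 2.95. Both anchors lay within 25 kb of a minimum in 7 of 26, against 6.35% of all squares. In 11 only one did and in 8 neither did. The contacts stayed within one stretch in 7 cases and crossed at least one minimum in 19, against 93.2% of all squares.

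The highest point contact of the whole interval was not at the locus but in the centromeric flank. It joined the bins at 44655001 and 44965001, 310 kb apart, with an O/E of 8.12 (7.88 to 8.36) from 5300 read pairs, and 8.77 without balancing. Its anchors flank *Pax2* and neither has a protein-coding start within 10 kb. The start of *Pax2* lies between them and met both: the bin at 44825001 had 2.61 (2.51 to 2.72) with 44660001 and 2.19 (2.10 to 2.29) with 44960001. The *Pax2* start also met the *Tlx1* start, 400 kb away, at 2.01 (1.87 to 2.16) from 887 read pairs, just above the threshold. At the centromeric end of the interval the bin at 44445001 met 44495001 at 2.63 and 44610001, near the COPII gene *Sec31b*, at 2.88.

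At the locus, the bin at 45295001 met 45815001, beside *Fgf8* and *Npm3*, at 6.85 (6.61 to 7.10) over 520 kb, and the bin at 45290001 met 45620001 at 5.45 (5.25 to 5.65) over 330 kb. A contact of 3.16 joined 45295001 to 45510001, inside *Btrc*, whose F-box product marks beta-catenin for degradation. A contact of 3.07 over 175 kb joined the bin at 45645001, inside *Dpcd* and within 10 kb of the shared start region of *Poll* and *Dpcd*, to the bin at 45820001, beside *Fgf8* and *Npm3*. In the telomeric flank, the bin at 46205001, near *Elovl3*, a fatty acid elongase gene, had 3.85 (3.70 to 4.01) with 46385001 near *Nfkb2* and 3.38 (3.28 to 3.48) with 46325001 inside *Gbf1*. The contact of 45880001, near the potassium channel regulator gene *Kcnip2*, with 46095001 had 2.98, against 1.92 without balancing.

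The other called contacts ran between these parts, across the *Lbx1* stretch. The bin at 45290001 met 46075001, at *Armh3* and *Hps6*, at 3.33 (2.98 to 3.72) over 785 kb. The *Kazald1* start region met *Fgf8* and *Npm3* at 2.79 (2.56 to 3.04) over 665 kb, and 45040001 met 45835001, within the *Oga* stretch, at 2.92 (2.63 to 3.25) over 795 kb. At 800 kb or more there were 7 contacts, with O/E from 2.02 to 3.00 and only 58 to 150 read pairs each. The highest of these joined *Kazald1* to *Ldb1* and *Pprc1* over 970 kb at 3.00 (2.55 to 3.54), but at 1.38 without balancing. The start region of *Lzts2*, *Twnk* and *Mrpl43* met *Ldb1* and *Pprc1* over 1035 kb at 2.88, and DNA near *Psd* over 1305 kb at 2.51, and without balancing these were 1.4 and 1.78. The longest, from 44630001 at *Ndufb8* and *Hif1an* to 46120001 at *Ldb1* and *Pprc1* over 1490 kb, had 2.03 (1.58 to 2.60) from 64 read pairs and 1.05 without balancing. Both anchors lay within 10 kb of a protein-coding start in 8 of the 26 contacts, against 10.1% of all squares, and in 4 of the 7 long ones, against 10.3% of squares at that distance. These 4 share anchors and are not independent: the bin at 46120001, with 17318 read pairs, serves 3 calls, and that at 45085001 serves 2. Without balancing, the contacts at 800 kb or more were not found again.

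For 4 of the 26 calls the central bin of an anchor had no values, and 3 of these used the bin at 45260001. They rested on 58 to 81 read pairs, and without balancing their O/E was 0.63 to 0.83. With a minimum of 500 read pairs 14 of the 26 remained, and 12 of the 26 were also called without balancing.

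**Figure D5:**
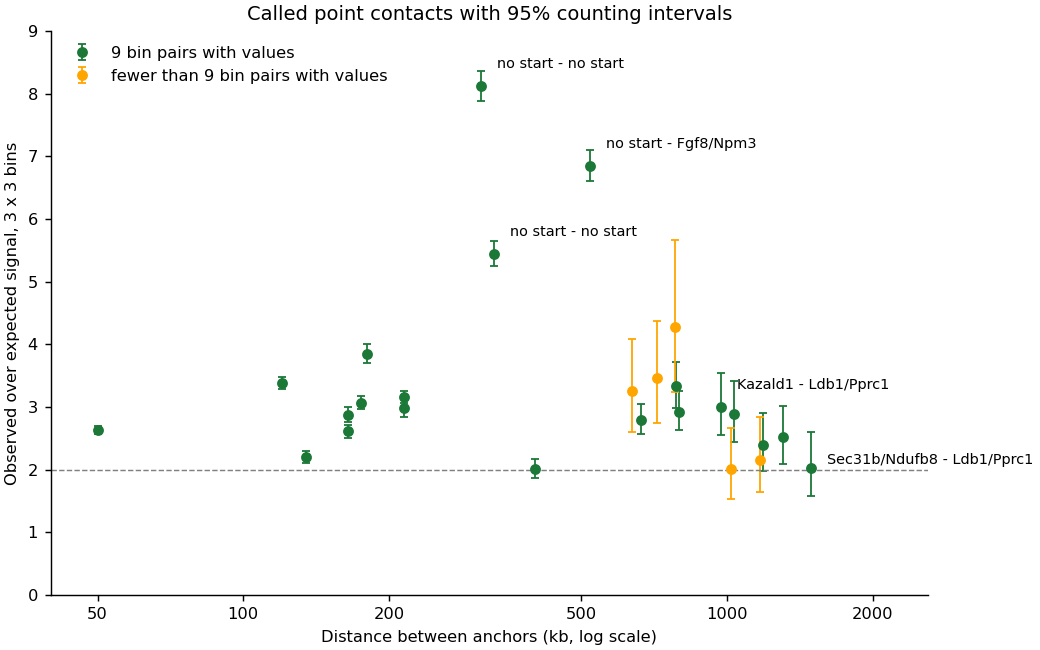
O/E of the 26 called point contacts (points, with 95% counting intervals as bars) against the distance between anchors in kb (log scale), with the threshold of 2 as a dashed line. The highest, at 8.12, 6.85 and 5.45, lie between 310 and 520 kb, and the contacts at 800 kb or more lie between 2.02 and 3.00 with wide intervals.

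The strongest squares of each distance, called or not, are given for squares in which all 9 bin pairs had values. At 25 to 50 kb the highest were 44445001 with 44490001 at 2.64 and 45010001, near *Slf2*, with 45050001 at 1.97, where the median square had 1.01 and the 99th percentile was 1.70. At 50 to 100 kb, after the called contact at 2.63, the next were within the telomeric flank: 46235001 with 46330001 at 2.17 and 46210001 with 46305001 at 2.01 (99th percentile 1.86). At 100 to 200 kb the 3 highest were the called contacts at 3.85, 3.38 and 3.07. The median there was 0.79 and the 99th percentile 2.66. At 200 to 400 kb the 99th percentile reached 3.57, and the third square after 8.12 and 5.45 was 44650001 with 44990001 at 4.37, beside the highest contact. At 400 to 800 kb the highest square was the called contact at 6.85, and the next joined 45250001 to 45820001 at 4.23 (3.82 to 4.70), or 3.93 without balancing. At 800 to 1600 kb the highest was the called contact at 3.00, and the next joined 45290001 to 46095001 at 2.93 (2.62 to 3.27). The strongest relative contacts thus lay at 200 to 800 kb, not at the shortest distances.

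A stripe was called where a bin had at least 1.3 times the signal of its neighbours 10 to 20 kb away, at 50 to 500 kb on one side, and was above them in all but at most 1 of the 9 segments of 50 kb. Of 564 bin sides 4 (0.709%) were called, and the median ratio was 0.99. They were 45230001, near *Tlx1*, towards the centromere at 1.34 (1.31 to 1.37), 45295001 towards the telomere at 1.3 (1.28 to 1.32), 45615001 towards the centromere at 1.33 (1.3 to 1.36) and 45820001, at *Fgf8* and *Npm3*, towards the centromere at 1.3 (1.28 to 1.32). Signal was above that of the neighbours in all 9 segments of 50 kb for each of these 4. The stripes at 45295001 and 45615001 thus ran from the ends of the *Lbx1* stretch into it and past its far end, and that at 45820001 from the *Fgf8* end into the *Poll* to *Npm3* stretch and beyond. Just below the threshold were 44655001 towards the telomere at 1.29, which is the centromeric anchor of the highest contact, and 45145001 near *Kazald1* at 1.26. The bin at 45010001 near *Slf2* had 1.28, but was above its neighbours in only 6 of 9 segments. A bin's own coverage enters this ratio directly: without balancing the ratio at 45615001 was 0.66. On that scale no stripe towards the centromere was called within 10 kb of 45230001 or of 45615001. With distances of 50 to 300 kb the stripe at 45295001 was not called.

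Bins that hold the start of a protein-coding gene met each other more than other bins did at long distance. There were 30 such bins. At 400 to 800 kb O/E was 1.35 (1.31 to 1.39) where both bins held a start, 1.11 where one did and 0.98 where neither did. At 800 to 1600 kb it was 1.35 (1.29 to 1.42), 1.10 and 0.98. Without balancing the values for both were 1.52 and 1.31. At 50 to 100 kb the excess was smaller, 1.07 (1.05 to 1.10), but 1.25 without balancing. At 100 to 200 kb the value for both was 1.18 with balancing and 1.08 without, and at 200 to 400 kb 1.11 and 0.97. Without balancing the excess thus did not grow steadily with distance. Between the centromeric and telomeric flanks, beyond 100 kb, start bins met at 1.48 (1.40 to 1.56) and other bins at 1.17. Within the locus the values were 1.74 and 1.16, and between the centromeric flank and the locus 0.99 and 0.82.

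The gene starts differed in how much they took part. Of 35 gene entries with values, 32 had an O/E above 1 with the other start bins beyond 100 kb, with a median of 1.15. The entries lie in 30 bins, so those that share a bin repeat its value. No share of all bins above 1 with the start bins stands beside this count, which is therefore only a description. With all bins beyond 100 kb, 21 of the 35 were above 1 and the median was 1.07, and without balancing 25 of 35 were above 1 with the start bins. The highest were *Nfkb2* at 1.92 (1.82 to 2.02), *Hif1an* at 1.74 (1.65 to 1.85), the histone chaperone gene *Npm3* at 1.63 (1.56 to 1.71), *Poll* and *Dpcd*, which share a bin, at 1.5 and *Fgf8* at 1.46 (1.38 to 1.54). *Lbx1* had 1.29 (1.23 to 1.35). The lowest were *Gm6807* at 0.88 (0.83 to 0.94), the F-box gene *Fbxw4* at 0.91 and *Pitx3* at 0.97. Without balancing, where the coverage of the gene's own bin enters the value, *Gm6807* had 1.02, *Fbxw4* 0.45, *Pitx3* 0.53 and *Btrc* 0.63 in place of 1.13. On that scale *Nfkb2* had 1.73, *Hif1an* 1.99, *Npm3* 2.18, *Fgf8* 1.63 and *Lbx1* 1.71. Genes in one part share distant partners and are not independent.

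The highest partners of single starts outside the locus were as follows. *Hif1an* met 44970001 at 4.83 (4.67 to 4.99) over 335 kb and also 45040001 at 2.85. *Slf2* met 44640001, the *Hif1an* region, at 3.66 (3.51 to 3.82) and, across the whole locus, 45845001 at *Oga* over 840 kb at 2.05. *Tlx1* met 45815001, beside *Fgf8*, at 3.10 (2.89 to 3.32) over 595 kb, and this was 4.18 without balancing. *Oga* met 45290001 at 2.79 over 565 kb, and *Armh3* met 45285001 at 3.16 over 785 kb. *Nolc1*, *Pitx3* and *Nfkb2* had their highest contacts inside their own stretch, with *Nolc1* at 2.94 and *Pitx3* at 2.83 both meeting 46385001 near *Nfkb2*. For *Wnt8b* no partner was above 1.82.

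The CTCF core letters were found 248 times in the interval, 125 times on the plus strand and 123 on the minus strand. Of these, 126 (50.8%) were the single 12-letter run CCAGAAGAGGGC, letters also found in the B2 repeat of rodents. Because matches were so frequent, most places held one: 9 of 11 minima had a match in the 4 bins around them, against 89% of scored edges, and 36 of 40 anchors of point contacts had one in the bin or its neighbours, against 82.7% of bins. Without the repeated run, 122 matches were left. They were present at 9 of 11 minima against 72.5% of edges, and at 31 of 40 anchors against 60.5% of bins. Among the 26 point contacts, 11 had such a match on the plus strand at the centromeric anchor and on the minus strand at the telomeric anchor, so that they point towards each other. Of all squares 13% had this. The opposite order was possible in 5 of 26, against 15.5% of squares. An anchor with matches on both strands counts for both orders. The sequences given above show the first order for the contacts between 44445001 and 44495001, between 45295001 and 45510001, between 45295001 and 45815001 and between 46205001 and 46325001. The anchor at 45295001 also holds the minus match shown, and that at 45815001 plus matches, so that their order is one of several possible. Other high contacts did not have the first order. Without the repeated run, the telomeric anchor of 45290001 with 45620001 (O/E 5.45) had only the plus match shown. The contact of 45645001 with 45820001 had only a minus match at its centromeric anchor, and that of 45145001 with 45810001 only a plus match at its telomeric anchor. For the highest contact only the telomeric anchor had a match, on the minus strand, and the bins around 44655001 had none. The minima at 44635000 and 46150000 had no match in their 4 bins.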

How the data were processed

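Capture Hi-C selects the ligated DNA fragments of one interval and counts which segments were joined. The authors fixed E11.5 forelimb and hindlimb cells, cut the chromatin with DpnII, enriched with SureSelect probes, trimmed reads to 50 bp, mapped them to mm9 with HiCUP and Bowtie2 2.4.2, removed duplicates, kept mapping qualities of at least 30, merged the libraries and balanced 5 kb bins with the KR method in Juicer tools 1.19.02. The deposited values are this balanced signal: the number of read pairs times 1 factor per bin. Duplicates were removed by position and not by molecular tags, so intervals cover counting error only.

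The factor of each bin was solved so that every value became a whole number of read pairs (100% within 0.01), which gave the depth and the counting intervals. The method was tested on simulated data. Balancing equalises bins with unequal coverage, so values of thinly covered bins rest on few read pairs that it scales up. Bin pairs not listed count as 0. Python 3.11.15 with numpy 2.4.6, scipy 1.17.1 and matplotlib 3.10.9 was used.

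Genes were placed with GENCODE vM1 on mm9, in which 36 protein-coding entries overlap the interval, and 4 symbols were updated through RefSeq. The genes named are those of the locus, developmental and signalling genes of the flanks, genes that start within 10 kb of a minimum, anchor or stripe, and the first and last gene of each stretch. The genes that the profiles of single starts and the strongest squares add, and the values of gene start bins, were chosen after the map was seen. The sequence of mm9 was searched on both strands for the motif letters. The definitions, thresholds and gene lists were chosen with earlier results of these data known. The 8 other deposited maps of the series were not used here.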

Additional observations from a re-analysis of the deposited data

How the results depend on the processing

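The 4 libraries were deposited as 1 merged map, so leaving out each replicate in turn could not be run. No paired analysis was possible because the merged map carries no replicate numbers and no groups were compared.

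Slopes kept their sign. From read pairs without balancing they were −0.79 at 50 to 200 kb and −1.47 at 500 to 1500 kb, and with medians in place of means −1.11 at 50 to 200 kb, −0.77 at 200 to 500 kb and −1.3 at 500 to 1500 kb, so with medians 50 to 200 kb was no longer less steep than 200 to 500 kb. The number of minima depended on the window: 21 with 50 kb, 6 with 200 kb and 3 with 300 kb, which held 10, 5 and 3 of the 11. A prominence of 0.05 gave 17 and one of 0.2 gave 8. Without balancing there were also 11, and 9 of the first 11 were found again, all but 45005000 and 46075000. Bins of 10 kb gave 8 minima and held 6 of the 11, without 45005000, 45150000, 45825000, 46075000 and 46115000. Observed over expected signal gave 8 and held 7, without 45150000, 45825000, 46075000 and 46150000. The score at 44835000 turned to −0.25 with 50 kb. The median O/E inside stretches was 1.15 without balancing, 1.15 with the median as expectation and 1.21 for pairs at 50 kb or more. The *Slf2* to *Kazald1* stretch fell to 0.94 at 50 kb or more, the *Tlx1* stretch rose to 1.003 with the median and 1.02 at 50 kb or more, and the *Ldb1* to *Pprc1* stretch fell to 0.68 without balancing.

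Point contacts numbered 72 without balancing, 12 at an O/E of at least 3, 3 at a ring ratio of at least 2, 152 with squares of 1 bin, and 14 with at least 500 read pairs. The contact of 44630001 with 46120001 fell to 0.755 with squares of 1 bin. Without balancing, 45165001 with 46185001 had 0.828, and 45260001 had 0.646 with 45895001, 0.723 with 45975001 and 0.632 with 46040001. Stripes numbered 54 without balancing, where 2 of the 4 were found, 45295001 and 45820001. There were 0 at a ratio of at least 1.5 and 8 at 1.2. At 50 to 300 kb there were 5, which held 3 of the 4 and not 45295001. The stripe at 45615001 had 0.657 without balancing. The minimum of 500 read pairs, complete squares only and the ratio of 1.2 were chosen after seeing the data. Beyond 1000 kb the median of 7 read pairs per bin pair limits single contacts.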
